A study of Homo sapiens with 6 samples.

Results

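Metalloproteinases of the MMP, ADAM and ADAMTS families and their TIMP inhibitors were examined in BT549 cells, an established line of basal-like breast cancer. Members were taken by gene symbol in GENCODE release 29 (Ensembl 94), from the names MMP, ADAM, ADAMTS and TIMP followed by a number. The rule found 69 of the 58735 genes in the count table, with 24 MMPs, 22 ADAMs, 19 ADAMTSs and 4 TIMPs. RNA-Seq was performed on 3 libraries from cells given DMSO, the vehicle control, and 3 from cells given AS1842856, a small molecule that binds FOXO1, in both cases for 48 h. The labels give the dose as 200 nM and the text of the paper as 1 μM, and this was not resolved. The comparison asks which genes change in RNA level when cells are exposed to this molecule. The paper describes AS1842856 as changing FOXO1 activity and not simply blocking it. Only 1 cell line, 1 dose and 1 time point were measured.

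MMPs, ADAMs and ADAMTSs are zinc-dependent proteases that cut proteins of the extracellular matrix and of the cell surface. Most are made as inactive precursors and are held in check by TIMPs, small secreted proteins that occupy the active site. MMPs degrade collagens and other matrix proteins, ADAMs mainly release the outer parts of membrane proteins, and ADAMTSs are secreted enzymes that process procollagens, proteoglycans and other matrix proteins. In tumors these enzymes are known for matrix remodeling, invasion and the shedding of growth factors.

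The libraries held between 15289500 and 22981832 counts, and 14338 genes had enough counts for edgeR's quasi-likelihood test, which gave every adjusted p below. The 7 markers of a mesenchymal triple-negative line were all detected, with group means from 19.7 to 254.6 FPKM (fragments per kilobase of transcript, scaled to library size). All 7 differed between the groups: VIM, CDH2, SPARC, AXL, CAV1 and CD44 fell, AXL by the most (3.14-fold), and FN1 rose 2.18-fold. Their summed level was between 867.4 and 887.8 FPKM in DMSO and between 646.9 and 656.8 FPKM with AS1842856, and their part in the results was not tested. Of 6 luminal and hormone receptor markers, 5 were under 1 FPKM in both groups and the sixth, GATA3, was at 14.7 FPKM in DMSO and 17.8 FPKM with AS1842856. GATA3 rose (log2 fold change 0.28, adjusted p = 3.21e-06), and FOXA1, among the 5, fell (log2 fold change -1.11, adjusted p = 0.00755). The 3 leukocyte markers summed to between 0.125 and 0.228 FPKM in DMSO and between 0.287 and 0.391 FPKM with AS1842856. PTPRC rose (log2 fold change 1.48, adjusted p = 4.99e-07), CD68 had too few counts to test and CD3E had 0 counts throughout. The part of these markers in the results was not tested either. Both endothelial markers and both adipocyte markers were under 1 FPKM in both groups. Levels are shares of each library's RNA, so fewer expressing cells and less RNA per cell cannot be told apart.

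Of the 69 members, 55 had at least 1 count, 14 had none in any library, and 31 had enough counts to be tested, as did 14338 of the 58735 genes in the table. Of the 38 not tested, 22 had at most 3 counts over all 6 libraries, and the largest count of any of them in a library was 15. ADAM28, with 51 counts in all, had the highest total of the members not tested, and ADAMTS17, with 55, the lowest of those tested. The filter on low counts asks for enough counts in single libraries, so these totals do not mark its limit. A count of 0 in a library allows a level of up to 0.131 to 0.195 CPM (counts scaled to library size), depending on the library, and this limit covers counting error only.

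**Figure D1:**
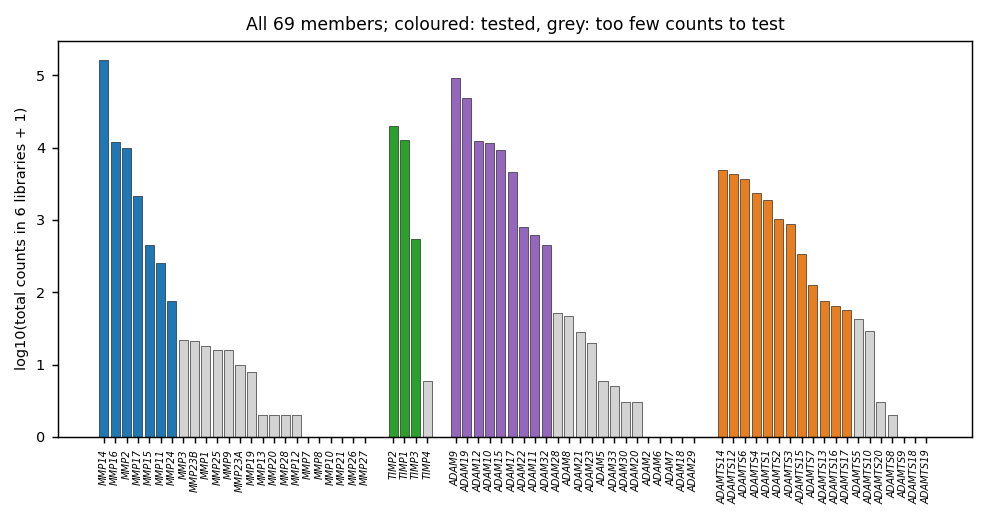
Bars show log10(total counts in 6 libraries + 1) for each of the 69 members, grouped as MMPs, TIMPs, ADAMs and ADAMTSs, with tested genes in color and genes with too few counts in grey. The 31 tested members stand beside 38 that were not tested, and MMP14 has the highest bar.

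Of the 31 members tested, 22 differed between the groups at an adjusted p under 0.05, where 56.0% of all genes tested did. AS1842856 raised 11 (27.6% of all genes tested were higher) and lowered 11 (28.4% were lower). Among those called, 10 members moved by 1 or more in log2 units, 6 upward and 4 downward, where 10.6% of all genes passed that rule. The 6 include ADAMTS7, which passed the filter on low counts through the AS1842856 libraries. The 11 raised also include MMP11, whose call is uncertain. The groups did not overlap in 25 of the 31, where this held for 59.9% of all genes. The median log2 fold change of the members was 0.04, and the median of its size was 0.72 (0.003 and 0.26 over all genes tested). The families differed in their counts. Of 7 MMPs tested, 5 rose and 1 fell. Of 9 ADAMs, 1 rose and 5 fell, of 12 ADAMTSs, 4 rose and 3 fell, and of 3 TIMPs, 1 rose and 2 fell. Whether these counts differ between families was not tested.

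**Figure D2:**
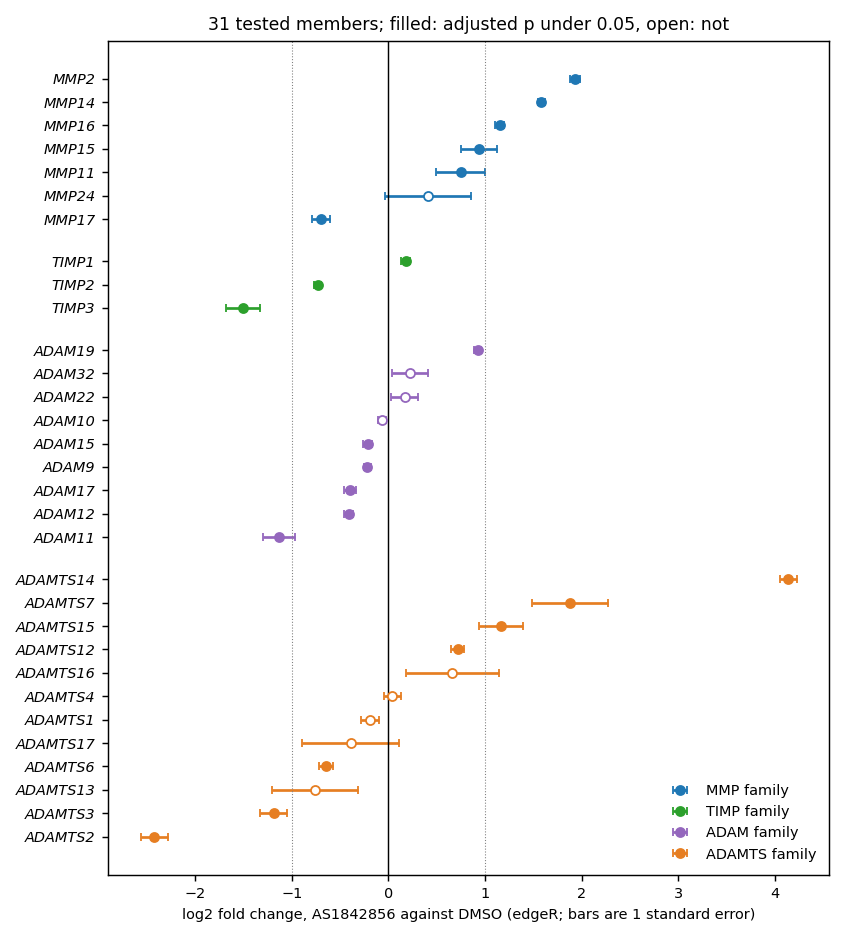
Each point is the log2 fold change of 1 tested member, AS1842856 against DMSO, from edgeR on the counts, with 1 standard error to each side (3 libraries per group). Filled points have an adjusted p under 0.05. The points run from -2.42 for ADAMTS2 to 4.14 for ADAMTS14, and the 9 open points are the members that did not pass the test.

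Membrane-type MMPs stay anchored to the cell surface, and 1 of them, MMP14, was the most abundant MMP in both groups. MMP14 (MT1-MMP; ENSG00000157227, GRCh38 chromosome 14 from 22836557 to 22849027) cuts fibrillar collagen at the cell surface and activates the precursor of MMP2. It stood at 160.0, 157.9 and 163.1 FPKM in DMSO and at 467.8, 491.3 and 482.4 FPKM with AS1842856. Every treated library was far above every control, and MMP14 moved from rank 190 to rank 44 by mean FPKM among 25015 genes. The log2 fold change was 1.58 ± 0.033 SE (adjusted p = 2.78e-125), a 3.0-fold rise.

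MMP16 (MT3-MMP), a transmembrane relative of MMP14, stood at 5.23, 5.59 and 5.33 FPKM in DMSO and at 12.5, 11.5 and 11.8 FPKM with AS1842856. It rose by a log2 fold change of 1.15 ± 0.046 SE (adjusted p = 9.26e-69). MMP15 and MMP17 were outside the rule for named genes and were picked after their values were seen. MMP15 (MT2-MMP), at 0.656, 0.599 and 0.557 FPKM in DMSO, stood at 1.05, 1.35 and 1.06 FPKM after treatment (log2 fold change 0.94 ± 0.19 SE, adjusted p = 4.89e-06). MMP17 (MT4-MMP), which is held in the membrane by a lipid anchor, went the other way, from 6.24, 5.49 and 5.77 FPKM to 3.56, 3.81 and 3.43 FPKM. Its log2 fold change was -0.70 ± 0.091 SE (adjusted p = 2.94e-12). Thus 3 of the 5 membrane-type MMPs tested rose and 1 fell, where 27.6% of all genes tested were higher and 28.4% lower. MMP24 (MT5-MMP) did not pass the test, at a mean of 0.124 FPKM in DMSO and 0.172 FPKM with AS1842856 (adjusted p = 0.452). It held 75 counts in all and shares 799 exonic bases with MMP24OS, an opposite-strand gene with 3656 counts. MMP25, the sixth, had 15 counts in all and was not tested.

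Among the gelatinases, which cut denatured collagen and basement membrane collagen, MMP2 (ENSG00000087245, chromosome 16 from 55389700 to 55506691) was well expressed and MMP9 was nearly undetected. MMP2 stood at 7.2, 7.19 and 7.1 FPKM in DMSO and at 27.2, 26.9 and 27.9 FPKM with AS1842856. The libraries of a group lay close together and the groups were wide apart, with a log2 fold change of 1.93 ± 0.051 SE (adjusted p = 4.05e-103), a 3.81-fold rise. MMP9 had 2, 3 and 2 counts in DMSO and 1, 3 and 4 counts with AS1842856, too few to test.

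The 3 collagenases, MMP1, MMP8 and MMP13, which make the first cut in fibrillar collagen, were not tested. MMP1 had 4, 0 and 0 counts in DMSO and 1, 6 and 6 counts with AS1842856, so the groups overlapped. Of the stromelysins, MMP3 had 3, 0 and 0 counts in DMSO and 4, 6 and 8 counts after treatment, which did not overlap but were too few for the filter. MMP10 had none, and MMP11 was the only stromelysin tested with edgeR. MMP11, named after its values were seen, stood at 0.28, 0.30 and 0.393 FPKM in DMSO and at 0.531, 0.488 and 0.624 FPKM with AS1842856 (log2 fold change 0.75 ± 0.25 SE, adjusted p = 0.00742). This call is uncertain. Without DMSO replicate A its adjusted p was 0.0515, and with DESeq2 it was 0.0527. MMP11 also shares 218 exonic bases with CHCHD10, whose reads numbered 551% of its own. CHCHD10 runs on the opposite strand and had a log2 fold change of 1.33, and the use of strand in counting is not given in the sources used here.

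MMP1, MMP3, MMP7, MMP8, MMP10, MMP12, MMP13, MMP20 and MMP27 lie side by side on chromosome 11, between positions 102520508 and 102955734. These 9 are all of the 9 protein-coding genes between those ends. None of them passed the filter on low counts for edgeR, 4 had no count, and together they held 41 counts over the 6 libraries. All 7 MMPs with enough counts to test lay elsewhere in the genome.

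TIMPs did not move together. TIMP1, a secreted inhibitor of most soluble MMPs, was the most abundant, at 69.4, 68.1 and 63.8 FPKM in DMSO and 72.0, 78.4 and 76.9 FPKM with AS1842856. The groups did not overlap, and the rise was small (log2 fold change 0.18 ± 0.044 SE, adjusted p = 0.000201). TIMP2, which binds both MMP14 and the MMP2 precursor at the cell surface, stood at 40.5, 39.7 and 37.2 FPKM in DMSO and at 23.4, 24.7 and 22.5 FPKM with AS1842856. It fell by a log2 fold change of -0.73 ± 0.040 SE (adjusted p = 4.24e-47). TIMP3, a matrix-bound inhibitor that also acts on ADAM17 and on ADAMTS enzymes, was low, at 1.53, 1.75 and 1.35 FPKM in DMSO, and lower after treatment, at 0.493, 0.501 and 0.629 FPKM. Its log2 fold change was -1.51 ± 0.18 SE (adjusted p = 1.59e-14), a 2.84-fold fall. TIMP4 had 3, 0 and 2 counts in DMSO and none with AS1842856, and was not tested.

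**Figure D3:**
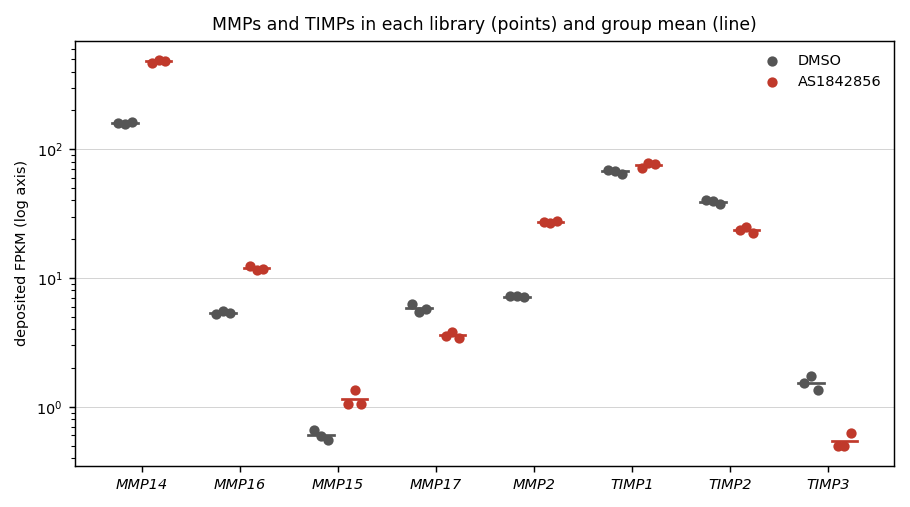
Deposited FPKM on a log axis for 5 MMPs and 3 TIMPs, with 1 point per library (3 DMSO in grey, 3 AS1842856 in red) and a line at each group mean. MMP14 sits between 467.8 and 491.3 FPKM in the treated libraries, above every control library, while TIMP2 and TIMP3 sit lower with AS1842856 than in DMSO.

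FPKM is scaled by gene length, so levels set beside each other between genes depend on the length used for each gene. The following ratios were chosen after the values were seen and are given with no test. MMP14 made up 89.1% ± 0.27 of the summed FPKM of all MMPs in DMSO and 91.4% ± 0.25 after treatment (SD over 3 libraries). The summed FPKM of the MMPs was 180.0 ± 2.6 in DMSO and 525.9 ± 11.6 with AS1842856, and that of the TIMPs was 107.8 ± 4.7 and 99.8 ± 3.9. The ratio of summed MMP to summed TIMP FPKM was 1.67 ± 0.095 in DMSO and 5.27 ± 0.088 with AS1842856. The MMP14 to TIMP2 ratio was 4.10 ± 0.24 in DMSO libraries and 20.5 ± 0.85 in AS1842856 libraries. By FPKM, MMP2 was below TIMP2 in every DMSO library, with ratios of 0.178, 0.181 and 0.191. It was above TIMP2 in every AS1842856 library, with ratios of 1.16, 1.09 and 1.24. The second order depends on the scaling by length. In counts with AS1842856, MMP2 had 2249, 3049 and 2471 and TIMP2 had 2205, 3194 and 2278. These are RNA levels, and neither protein nor enzyme activity was measured here.

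The ADAMTS family held the largest changes. ADAMTS2, ADAMTS3 and ADAMTS14 are the procollagen N-proteinases, which remove the amino-terminal propeptide from procollagens before fibrils form, and ADAMTS3 is also known for activating VEGFC. ADAMTS14 (ENSG00000138316, chromosome 10 from 70672803 to 70762441) stood at 0.688, 0.932 and 0.985 FPKM in DMSO and at 14.9, 14.8 and 15.7 FPKM with AS1842856. All 3 treated libraries were far above all controls, with a log2 fold change of 4.14 ± 0.085 SE (adjusted p = 1.73e-126), a 17.6-fold rise. ADAMTS2 (ENSG00000087116, chromosome 5 from 179110851 to 179345430) went the other way, from 1.71, 1.70 and 1.78 FPKM to 0.322, 0.309 and 0.338 FPKM. Its log2 fold change was -2.42 ± 0.14 SE (adjusted p = 1.06e-42), a 5.36-fold fall. ADAMTS3 stood at 1.54, 1.51 and 1.42 FPKM in DMSO and at 0.516, 0.710 and 0.722 FPKM after treatment (log2 fold change -1.19 ± 0.14 SE, adjusted p = 6.74e-15). With the levels of both groups side by side, ADAMTS14 was the lowest of the 3 in every DMSO library and the highest in every AS1842856 library. Its share of their summed FPKM was 17.5%, 22.5% and 23.5% in the DMSO libraries and 94.7%, 93.5% and 93.7% in the AS1842856 libraries. The sum itself was 4.09 ± 0.13 FPKM in DMSO and 16.1 ± 0.61 FPKM after treatment (SD over 3 libraries). This share was also chosen after the values were seen and was not tested.

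**Figure D4:**
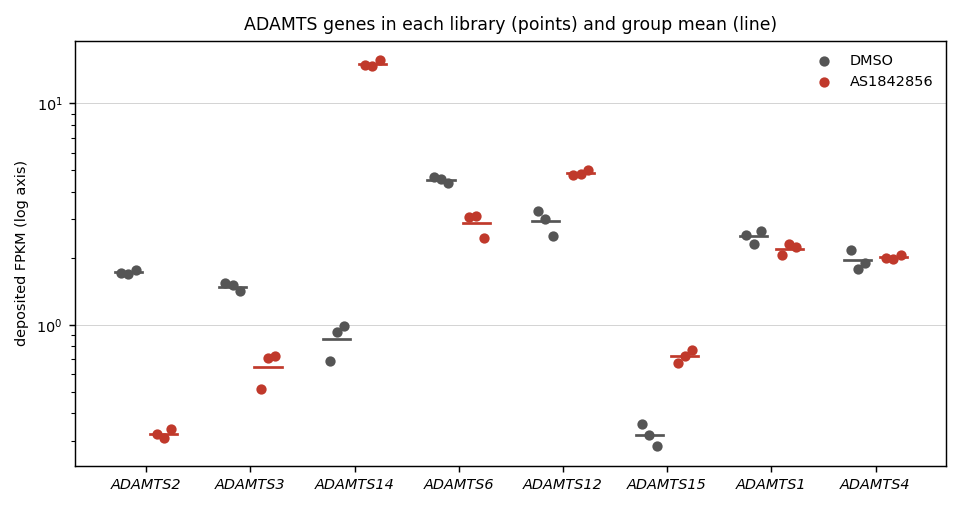
Deposited FPKM on a log axis for 8 ADAMTS genes, with 1 point per library (3 DMSO in grey, 3 AS1842856 in red) and a line at each group mean. ADAMTS14 goes from under 1 FPKM in every DMSO library to between 14.8 and 15.7 FPKM, ADAMTS2 and ADAMTS3 go down, and the points of ADAMTS4 overlap.

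The proteoglycanases cut aggrecan and versican. Of 7 in this group, 3 were tested and 1 rose, where 27.6% of all genes tested were higher. ADAMTS15 stood at 0.359, 0.319 and 0.283 FPKM in DMSO and at 0.674, 0.721 and 0.775 FPKM with AS1842856 (log2 fold change 1.17 ± 0.22 SE, adjusted p = 1.60e-06). ADAMTS1 had a mean of 2.51 FPKM in DMSO and 2.20 FPKM with AS1842856 (adjusted p = 0.0823), and ADAMTS4 had 1.96 and 2.02 FPKM (adjusted p = 0.719). Without DMSO replicate B the adjusted p of ADAMTS1 was 0.0402. ADAMTS5, known as a main aggrecanase of cartilage, had 41 counts in all and was not tested.

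Of the other 9 ADAMTSs, 6 were tested, of which 2 rose and 1 fell (27.6% of all genes tested were higher and 28.4% lower). ADAMTS7 and ADAMTS12 are close relatives that both cut the cartilage matrix protein COMP. ADAMTS12 stood at 3.27, 3.01 and 2.52 FPKM in DMSO and at 4.74, 4.78 and 5.0 FPKM with AS1842856 (log2 fold change 0.72 ± 0.067 SE, adjusted p = 7.82e-21). ADAMTS7 was near the limit of detection, at 0.0997, 0.00836 and 0.0554 FPKM in DMSO and 0.239, 0.197 and 0.223 FPKM after treatment. Its DMSO counts were 17, 1 and 8, so it passed the filter on low counts through the AS1842856 libraries. Its log2 fold change was 1.88 ± 0.39 SE (adjusted p = 9.97e-06), and it varied between 1.46 and 2.66 when single libraries were dropped (2.66 without DMSO replicate A). ADAMTS6, which acts on microfibril proteins, stood at 4.66, 4.56 and 4.37 FPKM in DMSO and at 3.08, 3.10 and 2.47 FPKM with AS1842856 (log2 fold change -0.65 ± 0.072 SE, adjusted p = 5.45e-16). ADAMTS13, which cuts von Willebrand factor, had a log2 fold change of -0.76 with an adjusted p of 0.141, and ADAMTS16 and ADAMTS17 had adjusted p-values of 0.238 and 0.528. All 3 were under 0.2 FPKM in every library. ADAMTS10, named after its values were seen, had 7, 6 and 8 counts in DMSO and 1, 4 and 2 counts with AS1842856. Its groups did not overlap but its counts were too few for the filter.

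ADAMs divide into active proteases and relatives that lost the zinc-binding histidines and serve in adhesion or fertilization. By the letters of their coding sequences, 12 of the 20 protein-coding ADAMs carried the complete zinc-binding signature, 8 did not, and the other two, ADAM5 and ADAM6, had no coding sequence. Of the 12 with the signature, 6 were tested, of which 1 rose and 4 fell. Of the 8 without it, 3 were tested and 1 fell. The shares over all genes tested were 27.6% higher and 28.4% lower.

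ADAM9, a widely expressed sheddase, was the most abundant ADAM, at 124.3, 126.1 and 120.7 FPKM in DMSO and 109.5, 105.0 and 104.5 FPKM with AS1842856. The groups did not overlap and the fall was small (log2 fold change -0.22 ± 0.033 SE, adjusted p = 1.26e-09). ADAM19, known for its part in heart development and neuregulin shedding, was second, at 38.5, 39.3 and 37.2 FPKM in DMSO and 73.0, 73.7 and 71.8 FPKM with AS1842856. It was the only ADAM that rose (log2 fold change 0.93 ± 0.035 SE, adjusted p = 3.10e-72). As a description with no test, the ratio of ADAM19 to ADAM9 FPKM was 0.310 ± 0.0017 in DMSO and 0.685 ± 0.018 with AS1842856 (SD over 3 libraries), while the summed FPKM of all ADAMs was 201.4 ± 5.2 and 211.4 ± 3.4.

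ADAM10 and ADAM17 are the best known sheddases, ADAM10 for cutting Notch receptors and ADAM17 for releasing TNF and EGF receptor ligands. ADAM10 stood at 6.49, 6.34 and 6.41 FPKM in DMSO and at 6.20, 6.33 and 5.82 FPKM with AS1842856 (log2 fold change -0.068 ± 0.045 SE, adjusted p = 0.192). ADAM17 stood at 4.11, 4.25 and 4.37 FPKM in DMSO and at 3.19, 3.28 and 3.17 FPKM with AS1842856. It fell by a log2 fold change of -0.40 ± 0.064 SE (adjusted p = 7.43e-09). ADAM17 shares 1323 exonic bases with IAH1, a gene on the opposite strand whose reads numbered 35.6% of its own and whose log2 fold change was -0.51, so part of its reads could belong to either gene.

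ADAM15, a membrane ADAM with an integrin-binding motif, had means of 13.3 FPKM in DMSO and 11.4 FPKM with AS1842856 (log2 fold change -0.21 ± 0.048 SE, adjusted p = 4.30e-05). ADAM12, named after its values were seen, stood at 13.2, 13.0 and 11.8 FPKM in DMSO and at 9.43, 9.58 and 9.59 FPKM after treatment (log2 fold change -0.41 ± 0.044 SE, adjusted p = 4.61e-17). Among ADAMs without the zinc-binding signature, ADAM11, a neural adhesion protein, had the largest fall of the family, from 1.56, 1.72 and 1.48 FPKM to 0.726, 0.821 and 0.595 FPKM. Its log2 fold change was -1.13 ± 0.16 SE (adjusted p = 1.67e-10). ADAM22 and ADAM32 did not pass the test, with adjusted p-values of 0.325 and 0.317.

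Genes that act on these proteases were described from a list of 29, of which 18 were tested. AS1842856 raised 5 and lowered 10 of the 18, where 56.0% of all genes tested changed, 27.6% higher and 28.4% lower. The 5 include BSG and TLL1, whose limits are given below. The median log2 fold change of the 18 was -0.21. RECK, a membrane-anchored inhibitor of MMP14, MMP2 and MMP9, stood at 4.03, 3.92 and 3.57 FPKM in DMSO and at 2.75, 2.55 and 2.12 FPKM with AS1842856 (log2 fold change -0.64 ± 0.092 SE, adjusted p = 1.73e-10). FURIN, a protease that activates many of these precursors, stood at 4.96, 5.40 and 5.27 FPKM in DMSO and at 3.18, 2.62 and 2.71 FPKM after treatment (log2 fold change -0.88 ± 0.092 SE, adjusted p = 1.15e-17). The letters of a convertase site were found in the coding sequences of 10 of 23 MMPs. Of these, 6 were tested. MMP14, MMP15, MMP16 and MMP11, the last with the uncertain call given above, rose, MMP17 fell and MMP24 did not pass the test. Over all genes tested, 27.6% were higher and 28.4% lower. MMP2, the other tested MMP, rose and lacked the site.

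BSG, or EMMPRIN, known as an inducer of MMPs, was abundant at a mean of 159.2 FPKM in DMSO and 168.7 FPKM with AS1842856. Its log2 fold change was 0.083 (adjusted p = 0.0295), its groups overlapped, and the call was lost without DMSO replicate B, with an adjusted p of 0.179, without DMSO replicate C, at 0.194, without AS1842856 replicate B, at 0.0635, and without AS1842856 replicate C, at 0.154. The call was also lost with the replicate letter as a block, at an adjusted p of 0.0565. RHBDF2 (iRhom2), a carrier of ADAM17 to the cell surface, did not pass the test (log2 fold change 0.12, adjusted p = 0.353). The other genes listed for ADAM17 trafficking, named after their values were seen, moved in opposite directions. RHBDF1 fell (log2 fold change -0.81 ± 0.092 SE, adjusted p = 1.64e-15) and FRMD8 rose (log2 fold change 0.30 ± 0.048 SE, adjusted p = 6.74e-09). TLL1, a tolloid protease that removes the carboxy-terminal propeptide of procollagens, was the only 1 of the 18 tested regulators with a change of at least 1. It had 8, 7 and 9 counts in DMSO and 88, 124 and 107 counts with AS1842856 (log2 fold change 3.67 ± 0.28 SE, adjusted p = 1.21e-28). Its DMSO counts were below the level of the filter on low counts, so it entered the test through the AS1842856 libraries. Among regulators with too few counts to test, ADAMTSL2 had no count in DMSO and 6, 11 and 14 counts with AS1842856, TLL2 had 2, 2 and 1 and then 6, 8 and 5 counts, and ADAMTSL5 had 13, 7 and 6 and then 3, 0 and 2 counts. The groups did not overlap in these 3 genes, which were named after their values were seen. They also did not overlap in PAPLN (7, 6 and 11, then 4, 4 and 5 counts) and PCSK5 (0, 1 and 1, then 2, 4 and 3 counts), likewise not tested. Over all genes tested the groups did not overlap in 59.9%, and the share among genes not tested was not computed. BMP1, the main enzyme of the tolloid kind, had means of 13.2 and 10.9 FPKM (log2 fold change -0.28 ± 0.047 SE, adjusted p = 4.96e-08), and was named after its values were seen.

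Promoters of MMPs are known for AP-1 sites, and the letters TGANTCA (AP-1), CTTTGAT or CTTTGAA (TCF/LEF) and GTAAACA (FOXO) were therefore searched on both strands in the 250 bases before the RefSeq start site (GRCh38.p14). Windows were found for 39 of the 69 members. The other 30, among them MMP1, MMP2, MMP3, MMP9, MMP12, MMP13, MMP16, MMP17, ADAM9 and TIMP2, had no window and were not searched. The AP-1 letters were in 4 of the 39 (ADAMTS12, MMP7, MMP10 and MMP20), and in 6.57% of all 35116 windows. The TCF/LEF letters were in MMP7 and MMP21 (5.94% of all windows), and the FOXO letters were in ADAMTS13 and MMP27 (2.98% of all windows). No match overlapped another. Of the 20 tested members with a window, ADAMTS12 alone held the AP-1 letters, ADAMTS13 alone the FOXO letters, and none the TCF/LEF letters. The N in TGANTCA accepts any base, so a match need not be a consensus AP-1 site. A match is a description of the letters and not a bound site. The median GC content was 73.4% in the windows of tested members and 55.0% in those of members not tested (58.0% over all windows).

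The 150 bases before the start site are given for MMP14 as the most abundant MMP, for ADAMTS14 and ADAMTS2 as the members with the largest rise and the largest fall, and for ADAMTS12 and MMP10 as members that hold the same AP-1 letters, shown in capitals. ADAMTS12 was expressed and rose, and MMP10 had no count in any library. MMP14 is from chr14:22836435-22836584 (+), ADAMTS14 from chr10:70672356-70672505 (+), ADAMTS2 from chr5:179345462-179345611 (-), ADAMTS12 from chr5:33891991-33892140 (-) and MMP10 from chr11:102780629-102780778 (-), each written 5′ to 3′ on the strand of the gene (RefSeq, GRCh38.p14).
MMP14: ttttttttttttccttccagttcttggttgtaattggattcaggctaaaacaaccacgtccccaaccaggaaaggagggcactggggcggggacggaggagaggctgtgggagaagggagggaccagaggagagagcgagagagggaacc
ADAMTS14: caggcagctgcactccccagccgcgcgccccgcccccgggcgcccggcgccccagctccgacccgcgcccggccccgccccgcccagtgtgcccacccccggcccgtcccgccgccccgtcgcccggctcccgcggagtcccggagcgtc
ADAMTS2: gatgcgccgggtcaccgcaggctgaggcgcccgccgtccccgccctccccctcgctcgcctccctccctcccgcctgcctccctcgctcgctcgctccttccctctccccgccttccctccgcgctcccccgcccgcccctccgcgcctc
ADAMTS12: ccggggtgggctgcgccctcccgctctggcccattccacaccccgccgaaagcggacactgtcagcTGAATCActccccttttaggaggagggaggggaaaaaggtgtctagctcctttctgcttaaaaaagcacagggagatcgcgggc
MMP10: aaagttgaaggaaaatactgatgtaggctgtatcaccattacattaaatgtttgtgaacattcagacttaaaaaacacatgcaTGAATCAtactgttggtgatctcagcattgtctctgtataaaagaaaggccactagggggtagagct
The capitals read TGAATCA in both, and start 84 bases before the start site in ADAMTS12 and 67 bases before it in MMP10. The printed stretches of ADAMTS14 and ADAMTS2, which moved in opposite directions, were both rich in GC, at 86.7% for ADAMTS14, and held 25 and 20 CpG pairs. That of MMP14 had 54.0% GC and 4 CpG pairs, and that of MMP10 had 36.7% GC and none.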

How the data were processed

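RNA-Seq was measured in 3 DMSO and 3 AS1842856 libraries of BT549 cells, called biological replicates in the paper, and samples were grouped by their treatment labels. The authors deposited raw counts per gene, without normalization, and FPKM values for each library, scaled by gene length and library size. The paper names STAR for mapping, while the submitters' processing notes list Bowtie 0.12.2, CASAVA and GRCh38. The counting tool and its use of strand are not given in the sources used here.

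Counts were fitted in R 4.3.3 with edgeR 4.0.16 (filterByExpr at min.count 10 and min.total.count 15, TMM, glmQLFit with robust estimation, glmQLFTest), with Benjamini-Hochberg adjustment over all 14338 genes tested and a threshold of 0.05. These genes held 99.9% of the counts. The standard error was the size of the log2 fold change divided by the square root of F. Totals ran from 15289500 to 22981832 counts per library, and the biological coefficient of variation was 0.0374. For 3 libraries per group, the smallest p that an exact permutation test (two-sided) of 1 gene allows is 0.1. Levels compared between genes are the deposited FPKM, and fold changes come from the counts.

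Members and lists were chosen with earlier results of these data known. Genes named were the TIMPs, members called with a log2 change of at least 1, the 3 most abundant of each protease family, MMP1, MMP2, MMP9, MMP14, ADAM10 and ADAM17, and regulators RECK, FURIN, BSG, RHBDF2 and those called with a change of at least 1. The zinc-binding signature and the convertase site were read from GENCODE 29 coding sequences, in place of the RefSeq proteins first planned. In its glycine form the signature was not matched in 5 of the 7 proteoglycanases, so it was used for ADAMs only. Alternatives were DESeq2 1.42.0, its size factors in edgeR, library totals, no filter, a stricter filter at 50 counts on average, limma 3.58.1 on FPKM with a pseudocount of 1 or 0.1 above an average FPKM of 0.5 (for the first also unfiltered), the replicate letter as a block, and each library left out. On simulated counts with 200 changed genes among 14316, edgeR recovered 100% of those changed by 1 and 77% of those changed by 0.5 on the log2 scale, with 4.84% false calls. The simulation gave every gene the same dispersion and drew the changed genes from those with more counts. In the real data 56.0% of genes tested were called. These rates therefore need not hold for the real data, nor for members with few reads.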

Additional observations from a re-analysis of the deposited data

How the results depend on the processing

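The number of members called stayed between 20 and 23 over the 15 alternatives, and was 22 with the replicate block. Of the 22 members called, 21 kept their call and direction in every alternative that tested them. The exception was MMP11, whose adjusted p was 0.0527 with DESeq2, 0.0509 with limma on log2(FPKM + 1) and no filter, and 0.0515 without DMSO replicate A. Members called with a log2 change of at least 1 numbered 10. They were 11 without DMSO replicate A and 10 without any other library, 9 with the filter at 50 counts, 8 with limma on log2(FPKM + 0.1), and 5 with limma on log2(FPKM + 1), with or without the filter, a scale that understates the changes of low genes (-1.04 in place of -2.42 for ADAMTS2, for example). Without that filter limma also called MMP3 (log2 fold change 0.17, adjusted p = 0.0431). BSG kept its direction, with a log2 fold change from 0.058 to 0.13 with each library left out, and its adjusted p reached 0.229 over the alternatives. Same-lettered libraries did not deviate together (correlations of 0.026, -0.011 and -0.013), so the letters were not taken to pair the samples, and apart from BSG the replicate block changed no call of a tested member or of a regulator that the naming rule chose. Depth limits the 38 members not tested, and ADAMTS7, ADAMTS13, ADAMTS16, ADAMTS17 and MMP24 rest on few reads.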
